A study of Mus musculus with 9 samples.

Results

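The mRNA levels of 10 genes of the BCL2 family were followed through 9 RNA-seq libraries of cultured mouse oligodendrocyte progenitor cells (OPCs), the dividing precursors of myelin-forming cells. The members were taken by symbol from a table of 56980 genes: the anti-apoptotic genes Bcl2, Bcl2l1 and Mcl1, the pore-forming genes Bax and Bak1, and the BH3-only genes Bcl2l11, Bbc3, Pmaip1, Bid and Bad. All 10 were found, and all 10 were among the 17001 genes with enough counts to be tested. The libraries formed 3 groups of 3. BB-p53n EZH2i cells were Trp53 -/- OPCs expressing PDGF-BB, a ligand of PDGF receptors, that received 5 µM tazemetostat, an inhibitor of the histone methyltransferase EZH2, for 48 hours. BB-p53n DMSO cells were the same PDGF-BB-expressing OPCs with the vehicle DMSO, and p53n cells were Trp53 -/- OPCs labelled as controls, with no DMSO named. Every group was kept in medium with 10 ng/mL PDGF-AA and forskolin and lacked p53, so no group with intact Trp53 was analysed here. DMSO is named for BB-p53n DMSO alone, so in its difference from p53n the shares of PDGF-BB and of DMSO cannot be told apart. The labels name neither the PDGF-BB construct nor the cultures behind the replicates, so p-values measure how far these libraries scatter, which could be technical.

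BCL2 family proteins decide whether the outer mitochondrial membrane is opened. BAX and BAK form the pore that releases cytochrome c. BCL-2 (Bcl2), BCL-XL (Bcl2l1) and MCL-1 hold them in check, and BH3-only proteins such as BIM (Bcl2l11), PUMA (Bbc3), NOXA (Pmaip1), BID and BAD bind the guardians or engage the pore formers directly. In the oligodendrocyte lineage, where many newly made cells die during development, survival signals from growth factors act on this balance. Bbc3, Pmaip1 and Bax are textbook p53 targets, and Bcl2l11 and Bbc3 are also known targets of FOXO factors, which growth factor signalling through AKT keeps out of the nucleus. These functions are those of the proteins, often switched by phosphorylation or cleavage, and the data below are mRNA levels.

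Start regions are shown for the 2 members that moved most, in opposite directions, between BB-p53n DMSO and p53n cells, and for Bcl2, the member that fell most with tazemetostat. The sequences are RefSeq windows of 300 bases on GRCm38.p6 (250 bases before and 50 after an annotated start), 5′ to 3′ on the gene's strand. Capitals mark the FOXO letters GTAAACA, the GC box GGGCGG and the CCAAT box, on either strand.
Bcl2l11, chr2:128125788-128126087, plus strand: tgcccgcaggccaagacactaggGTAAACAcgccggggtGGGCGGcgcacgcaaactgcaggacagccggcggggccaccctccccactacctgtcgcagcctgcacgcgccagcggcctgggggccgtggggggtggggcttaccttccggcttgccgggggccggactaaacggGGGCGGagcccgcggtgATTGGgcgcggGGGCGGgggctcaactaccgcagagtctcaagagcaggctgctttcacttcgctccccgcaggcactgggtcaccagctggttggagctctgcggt
Bbc3, chr7:16310011-16310310, plus strand: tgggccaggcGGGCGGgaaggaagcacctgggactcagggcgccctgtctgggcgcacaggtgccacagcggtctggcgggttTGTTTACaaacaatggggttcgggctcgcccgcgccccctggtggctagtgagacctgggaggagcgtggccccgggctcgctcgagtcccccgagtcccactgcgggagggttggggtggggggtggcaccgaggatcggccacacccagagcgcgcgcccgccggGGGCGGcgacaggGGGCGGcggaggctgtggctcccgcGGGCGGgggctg
Bcl2, chr1:106714241-106714540, minus strand: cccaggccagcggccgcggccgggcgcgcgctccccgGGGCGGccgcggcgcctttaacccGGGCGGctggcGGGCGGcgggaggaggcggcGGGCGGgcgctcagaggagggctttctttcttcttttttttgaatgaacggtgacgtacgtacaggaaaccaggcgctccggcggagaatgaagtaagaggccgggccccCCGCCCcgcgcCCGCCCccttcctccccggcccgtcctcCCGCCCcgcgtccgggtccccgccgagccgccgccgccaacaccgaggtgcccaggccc
The FOXO letters stood at offset -227 from the start in this Bcl2l11 window and, on the opposite strand, at offset -167 in this Bbc3 window. They occurred in 3.65% of the 32841 windows of all genes and in no other of the 15 windows searched for 9 members. Bcl2l11 and Bbc3 both have other annotated starts, not shown, whose windows lacked these letters. The window shown for each is thus the one that holds them. GGGCGG, which Bcl2 held 7 times and which occurred in 35.7% of all windows, did not overlap the FOXO letters. Bcl2 also held 44 CpG dinucleotides, with 98.1% of all windows holding as few or fewer. The one window of Bax held a single copy of the p53 decamer by its consensus, as did 8.36% of all windows. None of these 15 windows held TGACGTCA (1.79% of windows), TTGCATCA (0.895%), TTTCCCGC (1.07%) or TATAAA (13.6%). Pmaip1 was left out of this search, so nothing is said of its windows, and it has no sequence shown here.

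Total counts were 19471768 to 25008897 in the BB-p53n EZH2i libraries, 32727333 to 34557109 in BB-p53n DMSO and 22628267 to 27979456 in p53n. Levels are CPM, counts scaled to library size with TMM, and 3 counts in 1 library corresponded to 0.087 to 0.154 CPM. The 10 members took 0.0471% to 0.0511% of all counts in BB-p53n EZH2i, 0.0367% to 0.0384% in BB-p53n DMSO and 0.0336% to 0.0345% in p53n. Trp53 transcripts, which can still be made from a disrupted gene, were at 14.7, 12.99 and 15.2 CPM in BB-p53n EZH2i, 13.8, 12.02 and 14.9 CPM in BB-p53n DMSO, and 6.77, 8.33 and 6.94 CPM in p53n. The deposited coordinates do not say which part of the gene was deleted, so this does not check the genotype. Ezh2 was at 107 to 116 CPM, 170.1 to 173 CPM and 110.1 to 116 CPM in the same 3 groups, and endogenous Pdgfb had 13, 16 and 1 counts over them. OPC markers summed to 5287 to 5491, 6916 to 6945 and 6915 to 7363 CPM, with none of the 11 at 0 in a whole group. These sums hide changes of single markers. Of the 10 tested, 5 rose and 4 fell in BB-p53n DMSO against p53n, beside 69.3% of all genes called. Sox10 averaged 459 CPM in BB-p53n EZH2i, 299 CPM in BB-p53n DMSO and only 2.21 CPM in p53n. Markers of differentiating oligodendrocytes (10 genes) summed to 656 to 695, 582 to 651 and 3753 to 3852 CPM, and 8 astrocyte markers to 1113 to 1259, 1066 to 1088 and 1658 to 1842 CPM. Aldoc and Slc1a3 made up most of the astrocyte sum, and all 8 of these markers fell in BB-p53n DMSO against p53n, with a median log2 fold change of -3.74 (Aqp4 at -5.89, Gja1 at -5.49 and Gfap at -3.71). Neuron markers (7 genes) summed to 177 to 182, 301 to 321 and 541 to 550.4 CPM, and 8 microglia, 6 endothelial and 7 mural or fibroblast markers to at most 2.87, 22.1 and 3.66 CPM in any library. The mitochondrial share of counts was 1.34% to 1.54% in BB-p53n EZH2i, 2.44% to 2.62% in BB-p53n DMSO and 4.46% to 5.76% in p53n. In bulk RNA, fewer cells of a type and less RNA per cell cannot be told apart, and the part of these shifts in the members' differences was not tested. Xist was at 2.82 to 17.4 CPM in BB-p53n EZH2i, 46.2 to 65.0 CPM in BB-p53n DMSO and 2777 to 3101 CPM in p53n. The Y-linked Ddx3y was at 5.86 to 13.2 CPM in BB-p53n EZH2i, 43.0 to 53.6 CPM in BB-p53n DMSO and at most 0.72 CPM in p53n. The cultures with and without PDGF-BB therefore differed in sex-linked expression too, and this cannot be told apart from PDGF-BB.

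Per kilobase of exon, Mcl1, Bak1 and Bax were the 3 most abundant members in each group, followed by Bcl2l1. In BB-p53n EZH2i the order was Bak1 at 64.8 ± 7.63 CPM per kb (SD, n = 3), Mcl1 at 45.0 ± 2.11, Bax at 37.1 ± 4.81, Bcl2l1 at 12.5 ± 0.90, Bad at 7.77 ± 0.94, Bid at 3.74 ± 0.53, Bcl2l11 at 3.09 ± 0.026, Bcl2 at 1.59 ± 0.15, Bbc3 at 1.11 ± 0.30 and Pmaip1 at 0.81 ± 0.092. These levels are as counted and carry the GC and length trend described below. With that trend removed, the log2 fold change of BB-p53n EZH2i over BB-p53n DMSO was 0.23 for Bak1 (1.08 as counted) and 0.12 for Bax (1.05). Mcl1 was at -0.10 (-0.02 as counted). The place of Bak1 above Mcl1 therefore rests on levels without that correction. In BB-p53n DMSO Mcl1 led at 45.8 ± 2.11 CPM per kb, with Bak1 at 30.6 ± 0.11, Bax at 17.9 ± 0.38, Bcl2l1 at 8.50 ± 0.14 and Bcl2 at 3.96 ± 0.15. Below these stood Bcl2l11 at 3.28 ± 0.073, Bad at 2.94 ± 0.20, Bid at 2.33 ± 0.24, Pmaip1 at 1.58 ± 0.18 and Bbc3 at 0.71 ± 0.064. In p53n Mcl1 was at 45.0 ± 0.34 CPM per kb, Bak1 at 29.1 ± 1.59, Bax at 12.003 ± 0.75, Bcl2l1 at 6.75 ± 0.58, Bad at 2.85 ± 0.33 and Bcl2 at 2.64 ± 0.068. Bbc3 was at 1.75 ± 0.0028, Bid at 1.59 ± 0.19, Bcl2l11 at 1.44 ± 0.18 and Pmaip1 at 0.84 ± 0.29. Neighbours in these orders whose libraries overlapped were Bcl2 with Bbc3 and Bbc3 with Pmaip1 in BB-p53n EZH2i, and Bad with Bcl2, Bbc3 with Bid and Bid with Bcl2l11 in p53n. In BB-p53n DMSO no neighbours overlapped. With the length of the longest transcript in place of all exons, Bax (53.1) passed Mcl1 (45.0) in BB-p53n EZH2i, Bcl2l11 (5.23) passed Bcl2 (5.04) in BB-p53n DMSO, and Bid (2.33) and Bcl2l11 (2.29) passed Bbc3 (2.04) in p53n.

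**Figure D1:**
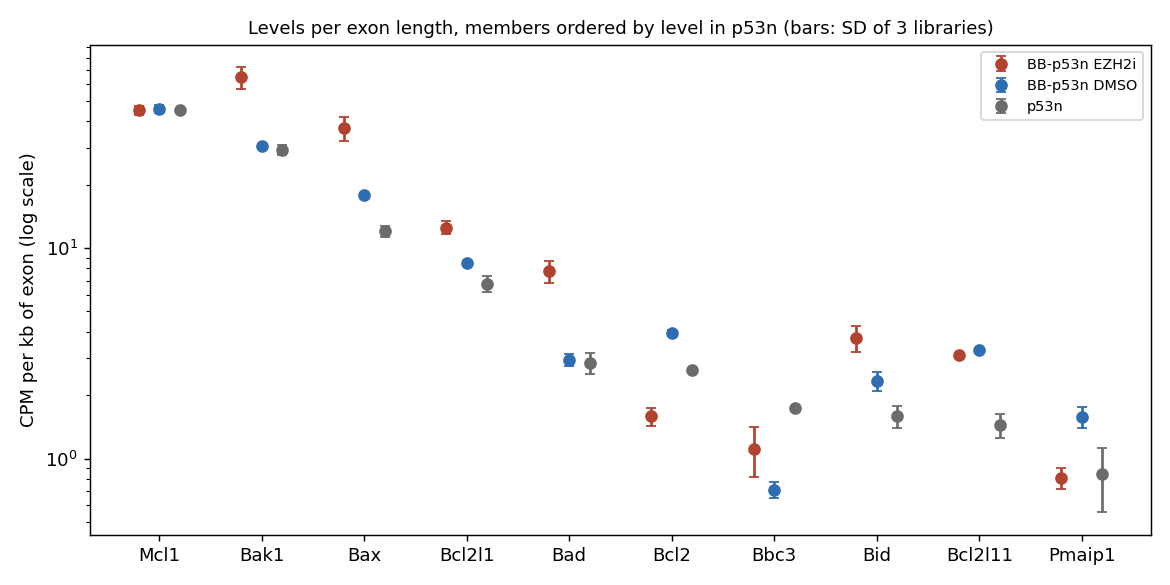
Mean CPM per kilobase of exon (log axis) for the 10 members in BB-p53n EZH2i, BB-p53n DMSO and p53n, with bars for the SD of 3 libraries, ordered by the level in p53n. Mcl1 is level across the groups at 45.0 to 45.8, while Bak1 in BB-p53n EZH2i stands at 64.8. Levels are as counted, with no correction for GC content or length.

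The first comparison asks what went with PDGF-BB expression. Against p53n, BB-p53n DMSO cells had more Bcl2l11, Pmaip1, Bcl2, Bax, Bid and Bcl2l1 mRNA and less Bbc3 mRNA, while Mcl1, Bak1 and Bad did not pass the test. The increases ran from 1.26-fold for Bcl2l1 to 2.28-fold for Bcl2l11, and Bbc3 was at 0.41 of its p53n level. Thus 6 members rose and 1 fell by edgeR's quasi-likelihood test (Benjamini-Hochberg adjusted p under 0.05), where 35.3% and 34% of all genes tested did so, 69.3% in all. Libraries of the groups did not overlap for 7 members, against 76.1% of all genes. The median log2 fold change was 0.44 over the members and -0.02 over all genes. In the corrected fit the same 7 were called, beside 71.5% of all genes (36% higher, 35.5% lower).

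Among the anti-apoptotic genes, Bcl2 (chromosome 1, 106465908 to 106642004, GRCm39) was at 36.1, 37.7 and 35.0 CPM in BB-p53n DMSO, against 23.5, 24.2 and 24.7 CPM in p53n. The 3 BB-p53n DMSO libraries lay above every p53n library, and the log2 fold change was 0.59 (SE 0.088, adjusted p = 5.96e-06). Bcl2l1 (chromosome 2, 152622588 to 152673648), which encodes BCL-XL, was at 38.4, 39.7 and 38.8 CPM in BB-p53n DMSO, against 34.0, 28.9 and 30.0 CPM in p53n. Its groups were also separate, with a smaller log2 fold change of 0.33 (SE 0.083, adjusted p = 0.00151), and it was lost with upper-quartile scaling (adjusted p = 0.0534). Mcl1 (chromosome 3, 95566099 to 95570487), a short-lived guardian, was at 151, 165 and 154 CPM in BB-p53n DMSO, against 152, 154 and 155 CPM in p53n. The ranges overlapped and the log2 fold change was 0.02 (SE 0.064, adjusted p = 0.748).

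Of the pore-forming genes, Bax (chromosome 7, 45111121 to 45116322) was at 27.5, 28.4 and 28.6 CPM in BB-p53n DMSO, against 19.9, 19.3 and 17.6 CPM in p53n. It rose by a log2 fold change of 0.57 (SE 0.096, adjusted p = 2.26e-05) with no overlap. In the fit corrected for GC content and length, described below, this became 0.35 (adjusted p = 0.000705). Bak1 (chromosome 17, 27238784 to 27247983) was at 74.0, 73.5 and 73.6 CPM in BB-p53n DMSO, against 74.5, 68.8 and 67.2 CPM in p53n, with overlap and a log2 fold change of 0.07 (SE 0.079, adjusted p = 0.444). The ratio of Bax to Bcl2 per kilobase, chosen after the values were seen and not tested, was 4.52 ± 0.20 in BB-p53n DMSO and 4.56 ± 0.39 in p53n (SD, n = 3 each).

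The BH3-only genes moved in both directions. Bcl2l11 (chromosome 2, 127967958 to 128004467), which encodes BIM, was at 26.8, 26.6 and 25.7 CPM in BB-p53n DMSO, against 11.8, 12.9 and 9.97 CPM in p53n. Its lowest BB-p53n DMSO library was well above its highest p53n library, and the log2 fold change of 1.19 (SE 0.10, adjusted p = 1.32e-09) exceeded that of 90.0% of all genes. Bbc3 (chromosome 7, 16042318 to 16052130), which encodes PUMA, was at 1.58, 1.60 and 1.36 CPM in BB-p53n DMSO, against 3.71, 3.71 and 3.70 CPM in p53n, from 44 to 54 counts per library against 88 to 107. It was the one member that fell, by 1.29 on the log2 scale (SE 0.22, adjusted p = 2.37e-05). Pmaip1 (chromosome 18, 66591604 to 66598636), which encodes NOXA, was at 4.72, 4.47 and 3.76 CPM in BB-p53n DMSO, against 1.91, 1.79 and 3.20 CPM in p53n. The groups were apart by a narrow margin and p53n replicate 3 was the highest of its group, and the log2 fold change was 0.92 (SE 0.22, adjusted p = 0.000811). Bbc3 and Pmaip1, both known p53 targets, thus differed in opposite directions between 2 groups that both lacked p53.

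Bid (chromosome 6, 120868891 to 120893814), whose protein is cleaved by caspase-8 downstream of death receptors, was at 7.79, 9.24 and 7.77 CPM in BB-p53n DMSO, against 5.41, 5.08 and 6.39 CPM in p53n. Its log2 fold change was 0.56 (SE 0.14, adjusted p = 0.00181). The authors' counting used no strand option, and 17.7% of the exon bases of Bid lie opposite exons of Bcl2l13, which was at 154 to 160.4 CPM in BB-p53n DMSO and 161 to 167 CPM in p53n. Bad (chromosome 19, 6919229 to 6929267), whose protein survival kinases inactivate by phosphorylation, was at 6.99, 7.58 and 7.99 CPM in BB-p53n DMSO, against 7.95, 6.33 and 7.57 CPM in p53n. These ranges overlapped, with a log2 fold change of 0.04 (SE 0.13, adjusted p = 0.787). Of its exon bases, 20.5% lie opposite Gpr137, which was at 25.9 to 26.3 CPM in BB-p53n DMSO and 25.5 to 26.9 CPM in p53n. A further 41.0% of the exon bases of Bad lie opposite an unnamed gene with at most 5 counts in any library. Of the exon bases of Bak1, which had 1598 to 3672 counts per library, 18.2% lie opposite Ggnbp1, with at most 19. Bid, Bad and Bak1 are therefore uncertain, since reads of either strand cannot be told apart.

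**Figure D2:**
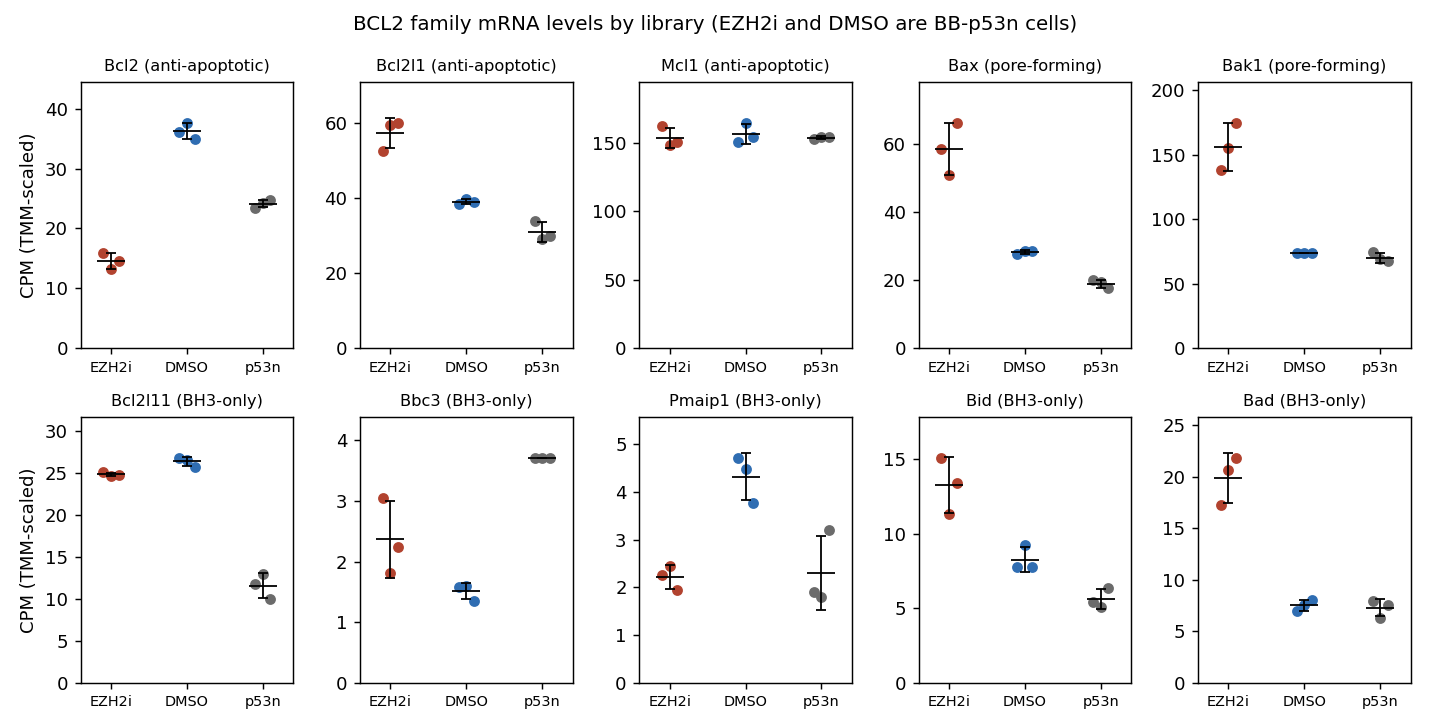
TMM-scaled CPM of each member in each library of BB-p53n EZH2i, BB-p53n DMSO and p53n (points), with the mean and SD of 3 libraries (bars). Bcl2 is at 13.2 to 16.0 in BB-p53n EZH2i, 35.0 to 37.7 in BB-p53n DMSO and 23.5 to 24.7 in p53n, and Mcl1 overlaps in all 3 groups.

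The second comparison asks what went with EZH2 inhibition in PDGF-BB-expressing cells. As counted, Bad, Bak1, Bax, Bid, Bbc3 and Bcl2l1 rose with tazemetostat, Bcl2 and Pmaip1 fell, and Mcl1 and Bcl2l11 did not pass the test. Libraries of the groups did not overlap for 9 members, Bcl2l11 included, against 75.3% of all genes. These 8 calls of 10 stand beside 72.9% of all genes (37.3% higher, 35.6% lower), and the median log2 fold change was 0.61 over the members and 0.02 over all genes. Fold changes in this comparison followed the base composition of the transcripts. Over 12786 genes, Spearman's rho was 0.73 with GC content and -0.43 with length (genes are not independent replicates), and the median log2 fold change was -1.41 in the lowest GC decile and 0.83 in the highest. In BB-p53n DMSO against p53n the rho with GC content was 0.14. In BB-p53n EZH2i against p53n it was 0.56, with medians of -1.63 in the lowest GC decile and 1.01 in the highest.

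**Figure D3:**
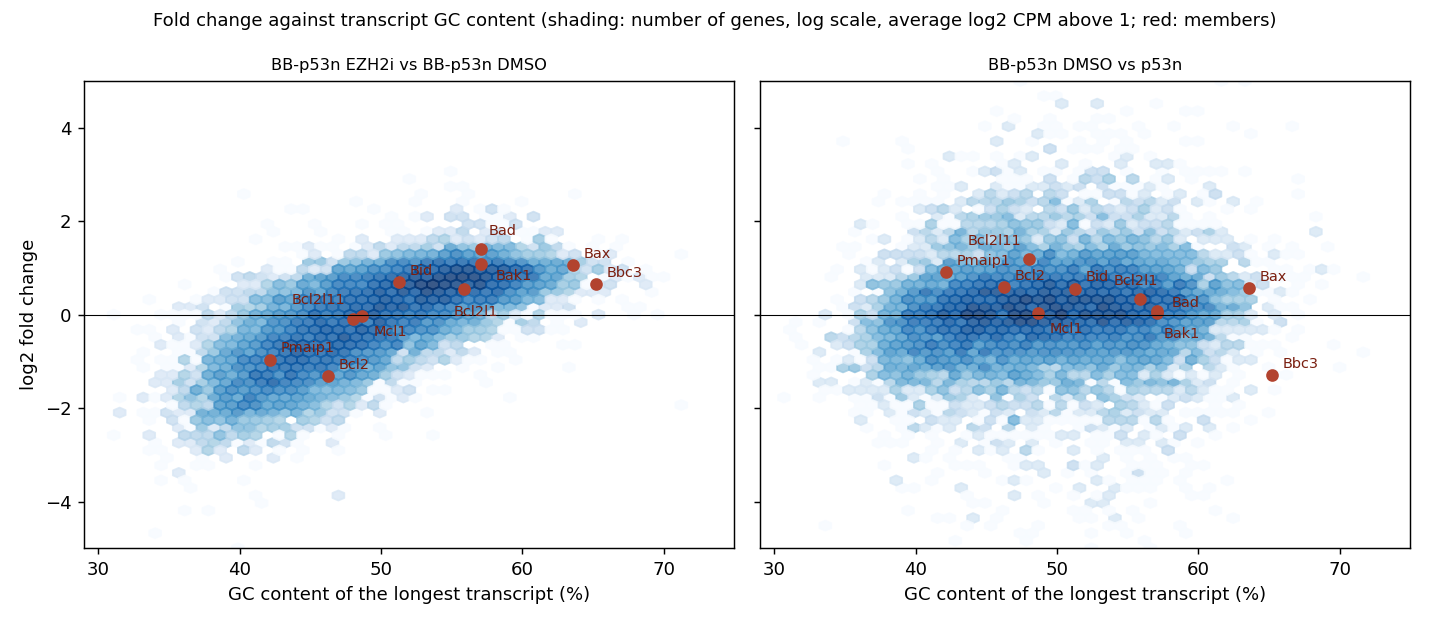
Log2 fold change against GC content of the longest transcript (%) for all genes with average log2 CPM above 1 (shading, number of genes) and the 10 members (red), for BB-p53n EZH2i over BB-p53n DMSO (left) and BB-p53n DMSO over p53n (right). In the left panel Pmaip1 and Bcl2, at 42.1% and 46.3% GC, lie low and Bax and Bbc3, at 63.5% and 65.2%, lie high along the slope of all genes.

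With that trend removed in each library (GC content and exon length as smooth terms, scaling factors computed again), 4 members rose, 1 fell and 5 did not pass, beside 57.5% of all genes called (27.9% higher, 29.6% lower). The median log2 fold change of the members became 0.01, against -0.02 for all genes. Bad, Bak1 and Bid rose and Bcl2 fell in both fits. Bcl2l11 rose in the corrected fit alone. The calls of Bcl2l1, Bax, Bbc3 and Pmaip1 were lost, although Bax passed without BB-p53n EZH2i replicate 2 (0.21, adjusted p = 0.0182). With the library scaling of the uncorrected counts kept, which lowered the median of all genes to -0.10, 2 members rose (Bad by 0.48 and Bak1 by 0.15) and 3 fell (Bcl2 by 0.74, Mcl1 by 0.18 and Bcl2l1 by 0.17), beside 3935 genes higher and 5803 lower. Bid (adjusted p = 0.118) and Bcl2l11 (0.0793) did not pass there.

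Bcl2 was at 16.0, 13.2 and 14.6 CPM in BB-p53n EZH2i, against 36.1, 37.7 and 35.0 CPM in BB-p53n DMSO. All 3 treated libraries were below every vehicle library and also below the 3 p53n libraries. Bcl2 fell by 1.31 on the log2 scale (SE 0.093, adjusted p = 1.33e-10) and, with the trend removed, by 0.66 (SE 0.083, adjusted p = 6.18e-07). Bcl2l1 was at 52.6, 59.3 and 60.0 CPM in BB-p53n EZH2i, against 38.4, 39.7 and 38.8 CPM in BB-p53n DMSO. As counted it rose by 0.55 (SE 0.082, adjusted p = 4.04e-06), and in the corrected fit the value was -0.09 (SE 0.069, adjusted p = 0.28). Mcl1, at 162, 149 and 151 CPM in BB-p53n EZH2i, against 151, 165 and 154 CPM in BB-p53n DMSO, overlapped and had a log2 fold change of -0.02 (SE 0.064, adjusted p = 0.743) as counted and -0.10 (adjusted p = 0.12) corrected.

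Bax was at 58.3, 50.9 and 66.1 CPM in BB-p53n EZH2i, against 27.5, 28.4 and 28.6 CPM in BB-p53n DMSO. The treated libraries were all higher and more spread. The log2 fold change of 1.05 (SE 0.092, adjusted p = 2.61e-09) became 0.12 (SE 0.077, adjusted p = 0.203) with the trend removed. Bak1 was at 138, 155 and 175 CPM in BB-p53n EZH2i, against 74.0, 73.5 and 73.6 CPM in BB-p53n DMSO. It rose by 1.08 (SE 0.079, adjusted p = 2.22e-10) as counted and by 0.23 (SE 0.060, adjusted p = 0.00197) corrected. The ratio of Bax to Bcl2 per kilobase was 21.2, 22.5 and 26.4 in BB-p53n EZH2i, against 4.43, 4.38 and 4.75 in BB-p53n DMSO. On the log2 scale that ratio differed by 2.37 as counted and by 0.77 with the trend removed, a description with no test.

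Among the BH3-only genes, Bad was at 17.2, 20.6 and 21.8 CPM in BB-p53n EZH2i, against 6.99, 7.58 and 7.99 CPM in BB-p53n DMSO. The lowest treated library was above the highest vehicle library by a wide gap. It rose by 1.40 (SE 0.13, adjusted p = 3.63e-09), more than 96.4% of all genes, and by 0.56 (SE 0.11, adjusted p = 0.000175) with the trend removed. Gpr137, whose exons partly lie opposite Bad, was at 41.9, 43.9 and 56.3 CPM in BB-p53n EZH2i, against 26.0, 26.3 and 25.9 CPM in BB-p53n DMSO, and its part in the Bad counts was not tested. Bid was at 15.1, 11.3 and 13.4 CPM in BB-p53n EZH2i, against 7.79, 9.24 and 7.77 CPM in BB-p53n DMSO. It rose by 0.69 (SE 0.14, adjusted p = 0.000115) and, corrected, by 0.33 (SE 0.13, adjusted p = 0.0365). That corrected call was lost without BB-p53n EZH2i replicate 1 (adjusted p = 0.177) or 3 (0.0769) and without BB-p53n DMSO replicate 1 or 3 (0.113 each). Bcl2l13 on the other strand was at 166 to 176 CPM in BB-p53n EZH2i and 154 to 160.4 CPM in BB-p53n DMSO.

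Bcl2l11 was at 25.1, 24.7 and 24.7 CPM in BB-p53n EZH2i, against 26.8, 26.6 and 25.7 CPM in BB-p53n DMSO. Treated libraries were lower by a little, with no overlap and a log2 fold change of -0.09 (SE 0.095, adjusted p = 0.422), and with the trend removed Bcl2l11 rose by 0.26 (SE 0.085, adjusted p = 0.0122). Bbc3 was at 3.05, 1.81 and 2.24 CPM in BB-p53n EZH2i, from 34 to 77 counts, against 1.58, 1.60 and 1.36 CPM in BB-p53n DMSO, from 44 to 54 counts. As counted it rose by 0.66 (SE 0.23, adjusted p = 0.0141). Without BB-p53n EZH2i replicate 1, its highest library, the value was 0.42 (adjusted p = 0.149), without BB-p53n DMSO replicate 3 the adjusted p was 0.0558, and with the trend removed the value was -0.18 (adjusted p = 0.54). Pmaip1 was at 2.26, 2.45 and 1.95 CPM in BB-p53n EZH2i, against 4.72, 4.47 and 3.76 CPM in BB-p53n DMSO, from 41 to 57 counts against 122 to 158. It fell by 0.96 (SE 0.22, adjusted p = 0.000595) as counted, and the corrected value was -0.24 (SE 0.22, adjusted p = 0.36).

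**Figure D4:**
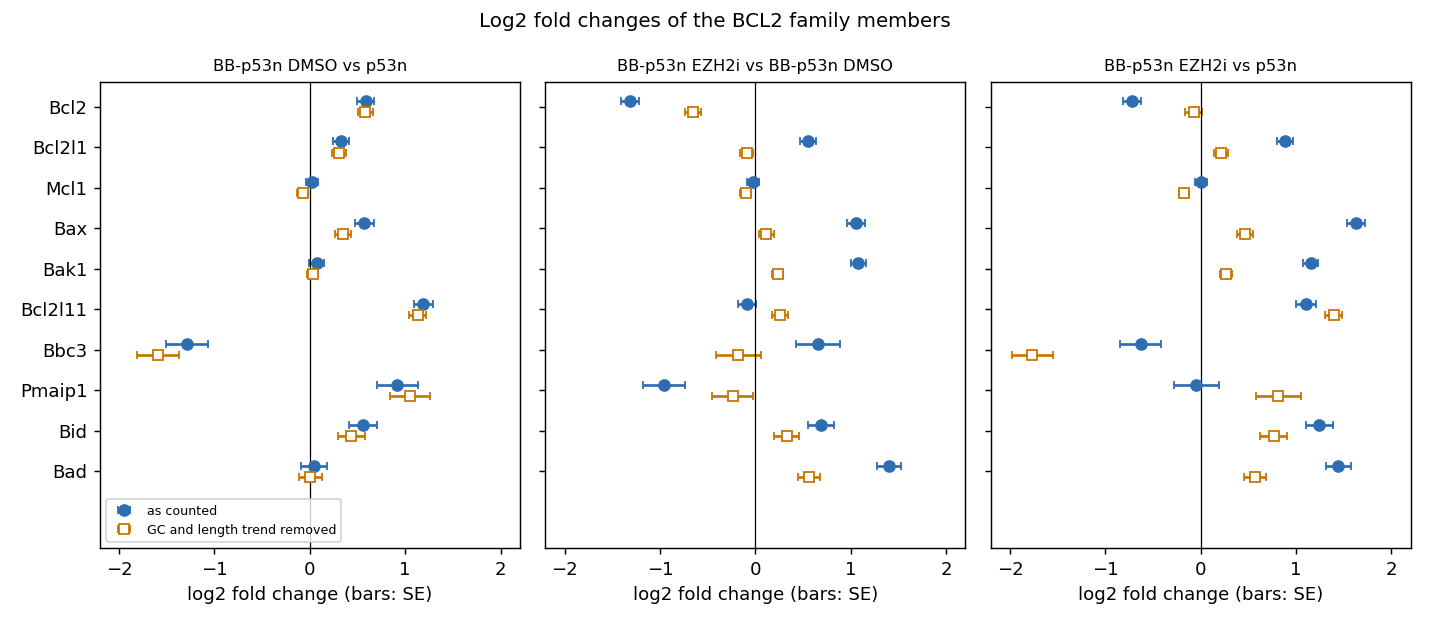
Log2 fold changes with SE of the 10 members in 3 comparisons, as counted (blue circles) and in the corrected fit (open orange squares). For BB-p53n EZH2i over BB-p53n DMSO, Bax moves to 0.12 with the trend removed against 1.05 as counted, and Bcl2 to -0.66 against -1.31, while for BB-p53n DMSO over p53n Bcl2l11 stays at 1.13 against 1.19.

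Set against p53n, BB-p53n EZH2i cells shared the higher Bcl2l11 and lower Bbc3 of BB-p53n DMSO cells, and these comparisons share libraries. As counted, Bax, Bad, Bid, Bak1, Bcl2l11 and Bcl2l1 rose, Bcl2 and Bbc3 fell, and Mcl1 and Pmaip1 did not pass, beside 82% of all genes called (40.3% higher, 41.7% lower). Libraries did not overlap for 8 members, against 82.2% of all genes, and the medians were 0.99 for the members and -0.04 for all genes. Bcl2l11, at 24.7 to 25.1 CPM in BB-p53n EZH2i and 9.97 to 12.9 CPM in p53n, rose by 1.10 (SE 0.10, adjusted p = 2.85e-09) as counted and by 1.39 (adjusted p = 6.63e-12) corrected. Bax, at 50.9 to 66.1 CPM in BB-p53n EZH2i and 17.6 to 19.9 CPM in p53n, rose by 1.63 (SE 0.096, adjusted p = 2.16e-12) and by 0.47 (adjusted p = 2.14e-05) corrected. Bcl2 fell by 0.72 (SE 0.094, adjusted p = 5.1e-07), and its corrected value was -0.07 (adjusted p = 0.43). Bbc3 fell by 0.63 (SE 0.22, adjusted p = 0.0114) and by 1.76 corrected (adjusted p = 1.94e-07). Its call as counted was lost without BB-p53n EZH2i replicate 2 (adjusted p = 0.0659). In the corrected fit 7 members rose and 2 fell, beside 78.1% of all genes (38% higher, 40.2% lower), with Pmaip1 at 0.81 (adjusted p = 0.0034) and Mcl1 at -0.18 (adjusted p = 0.00648) newly called. The corrected call of Mcl1 was lost without BB-p53n EZH2i replicate 2 (-0.11, adjusted p = 0.0818) and that of Bcl2l1, at 0.22, without p53n replicate 2 (adjusted p = 0.0509) and with the scaling of the uncorrected counts kept (0.14, adjusted p = 0.0866), where 8 members were called.

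Relatives of the 10 members and the further lists in the paragraphs below, all chosen for their known functions, were counted in the same fit. Their counts stand beside 69.3% of all genes called in BB-p53n DMSO against p53n (35.3% higher, 34% lower, median -0.02) and 72.9% in BB-p53n EZH2i against BB-p53n DMSO (37.3% higher, 35.6% lower, median 0.02), or 57.5% corrected. No test set a list against other genes, and nothing particular to a list is read from these counts. Bcl2l2 (BCL-w) was the one tested gene of 5 other guardians, at 24.8 ± 0.59 CPM in BB-p53n DMSO and 31.4 ± 3.17 CPM in p53n (SD, n = 3 each), and fell by 0.34 (adjusted p = 0.00238). Bcl2l10, Bcl2a1a, Bcl2a1b and Bcl2a1d had at most 2 counts over a group. Bok, the third pore-forming relative, was at 54.9 ± 3.71 CPM in BB-p53n EZH2i, 19.3 ± 1.27 CPM in BB-p53n DMSO and 17.7 ± 0.82 CPM in p53n. It rose with tazemetostat by 1.51 as counted (adjusted p = 8.6e-12) and by 0.57 corrected (adjusted p = 1.03e-06), close to Bad in both. Of 6 other BH3-only genes 3 rose and 3 fell in BB-p53n DMSO against p53n, with a median of -0.17. Bmf, whose protein binds guardians after cytoskeletal stress, was at 2.18, 3.05 and 2.50 CPM in BB-p53n DMSO, against 31.9, 36.8 and 32.3 CPM in p53n. Its fall of 3.70 (SE 0.14, adjusted p = 3.64e-15) was larger than the change of any of the 10 members in that comparison. Hrk rose by 1.88 (adjusted p = 1.22e-09) and Bnip3l, a mitophagy receptor, fell by 1.41 (adjusted p = 5.1e-13). With tazemetostat 2 of the 6 rose and 1 fell. That one, Bnip3l, fell by 0.62 as counted (adjusted p = 3.18e-07) and rose by 0.21 corrected (adjusted p = 0.0245), and Becn1, an autophagy gene, rose by 0.35 (adjusted p = 5.2e-05) and by 1.03 corrected (adjusted p = 5.71e-12). The last 3 tested relatives were Bcl2l12, Bcl2l13 and Bclaf1, whose protein binds BCL2 proteins and is not itself a homolog. In BB-p53n DMSO against p53n none of the 3 was called as counted, and in the corrected fit Bcl2l13 fell by 0.14 (adjusted p = 0.026). With tazemetostat Bcl2l13 rose by 0.14 (adjusted p = 0.0452) and by 0.40 corrected (adjusted p = 1.58e-06). Bcl2l12 rose by 0.64 as counted (adjusted p = 0.0373), with -0.20 (adjusted p = 0.543) corrected, and Bclaf1 fell by 1.62 as counted (adjusted p = 7.7e-05), with 0.13 (adjusted p = 0.11) corrected.

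Downstream of the pore, 9 of 16 tested genes of mitochondrial release, the apoptosome and caspases rose and 3 fell in BB-p53n DMSO against p53n (median 0.35). Cycs, cytochrome c, rose by 0.75 (adjusted p = 0.00221), and Diablo, an antagonist of IAP proteins, fell by 0.79 (adjusted p = 3.35e-05). With tazemetostat 9 rose and 4 fell as counted and 6 rose and 2 fell corrected. Endog and Htra2, at 1.10 and 0.95 as counted, had corrected values of 0.12 and 0.08 (adjusted p = 0.655 and 0.453), while Dffa rose by 0.85 and by 0.29 corrected (adjusted p = 0.00177). Among 4 tested inhibitors of apoptosis 2 rose and 1 fell with PDGF-BB. Birc5 (survivin), which also acts in cell division, was at 129 ± 5.21 CPM in BB-p53n DMSO and 22.5 ± 2.87 CPM in p53n (SD, n = 3 each) and rose by 2.51 (adjusted p = 9.02e-16). Birc6 rose by 0.58 (adjusted p = 7.52e-08), and Birc2 fell by 1.04 (adjusted p = 4.91e-08). With tazemetostat 1 rose and 3 fell. Birc6 fell by 2.04 and by 0.80 corrected (adjusted p = 4.22e-11), Birc2 by 1.19 and by 0.45 corrected (adjusted p = 0.000353), and Xiap by 1.88 as counted, with a corrected value of -0.14 (adjusted p = 0.102).

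On the death receptor branch that acts through BID, 3 of 7 tested genes rose and 2 fell with PDGF-BB. The adaptor Fadd rose by 1.02 (adjusted p = 1.36e-06), Tnfrsf1a by 0.60 (adjusted p = 1.85e-05) and Ripk1 by 0.54 (adjusted p = 2.27e-05). Casp8, which cleaves BID, had 4, 8 and 35 counts over BB-p53n EZH2i, BB-p53n DMSO and p53n and was not tested. With tazemetostat 4 rose and 2 fell, or 3 and 0 corrected, and Fadd rose by 0.98 and by 0.64 corrected (adjusted p = 6.39e-05). Cflar, which blocks caspase-8, fell by 1.25 as counted, with a corrected value of -0.18 (adjusted p = 0.118), and Tnfrsf1a rose by 0.87 as counted, with 0.08 (adjusted p = 0.339) corrected.

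Of 22 tested regulators of the family 10 rose and 5 fell with PDGF-BB (median 0.31). E2f1, which can activate BH3-only genes, rose by 3.25 (adjusted p = 1.8e-16), Mybl2 by 2.80 (adjusted p = 3.46e-15) and Ddit3 (CHOP), which regulates Bcl2l11 and Bcl2 under endoplasmic reticulum stress, by 1.79 (adjusted p = 1.1e-11). With tazemetostat 9 rose and 8 fell, or 7 and 8 corrected. Usp9x, a deubiquitinase that stabilises MCL-1 protein, fell by 2.61 and by 0.91 corrected (adjusted p = 2.23e-11), and Hif1a by 1.53 and by 0.49 corrected (adjusted p = 6.85e-07). Creb1, an activator of Bcl2 transcription, fell by 1.78 as counted, with a corrected value of -0.10 (adjusted p = 0.273). Of 13 other tested p53 targets 9 rose and 3 fell with PDGF-BB in these p53-null cells, with a median of 0.48 against -0.02 for all genes. Gtse1 rose by 2.52 (adjusted p = 1.77e-15), Phlda3 by 2.49 (adjusted p = 6.04e-13), and Trp53inp1 fell by 2.77 (adjusted p = 2.09e-08). With tazemetostat 6 rose and 5 fell, or 4 and 3 corrected. Trp53inp1 fell by 2.33 and by 0.98 corrected (adjusted p = 3.32e-07), Cdkn1a rose by 1.14 and by 0.50 corrected (adjusted p = 6.82e-06), and Phlda3, at 1.01 as counted, had 0.06 (adjusted p = 0.624) corrected. Over the 73 tested genes of all these lists, 36 rose and 18 fell with PDGF-BB, where 69.3% of all genes were called. With tazemetostat 34 rose and 24 fell, or 25 and 17 corrected, where 72.9% and 57.5% of all genes were called. In BB-p53n EZH2i against p53n 38 rose and 26 fell, or 40 and 22 corrected, where 82% and 78.1% of all genes were called. The largest changes by list in that comparison were those of Trp53inp1 (-5.10 as counted, -3.39 corrected), E2f1 (4.30 and 3.43), Bmf (-3.49 and -4.01), Birc5 (3.17 and 3.18), Fadd (2.00 and 1.54), Bok (1.63 and 0.57) and Bcl2l2 (-0.33 and -0.88), each called in both fits. Bclaf1 was called in both with opposite signs, at -1.901 as counted and 0.21 corrected.

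For 1 member of each class, the closest patterns over the 9 libraries were sought among 11547 named genes, by the distance between log2 CPM values centred on each gene's own mean. Closest to Bcl2 were Atl3 (distance 0.151, Pearson's r 0.996), Tent4b (0.154) and Rab1a (0.155). Closest to Bax were Imp3 (0.153), Ppp1r14b (0.154) and Ndufa11 (0.204), and closest to Bcl2l11 were Ptpn9 (0.171), Nfe2l1 (0.172) and Ptpn14 (0.209). The points share depth and base composition within each library, and the values are descriptions with no test.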

How the data were processed

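RNA-seq of polyadenylated RNA was analysed in 9 libraries in 3 groups of 3. The authors deposited 1 table of raw counts (fragments per gene). Per the file headers these were made with featureCounts 1.6.3 over exons, with a mapping quality of at least 20, no strand option, and the Ensembl release 108 annotation of GRCm39. Per the submitters' processing notes, Trimmomatic and Subread were also used, with parameters not given in the sources used here. Symbols and GC content were matched by gene ID to GENCODE on GRCm38 (52073 of 56980 genes), and promoter windows from RefSeq.

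Genes were filtered with filterByExpr, scaled with TMM and fitted in 1 quasi-likelihood model of edgeR 4.0.16 (R 4.3.3) over all 9 libraries, with group as the only term. Benjamini-Hochberg adjustment ran over 17001 genes, with a threshold of 0.05. The SE is the log2 fold change divided by the square root of F. The corrected fit used offsets from a natural spline with 5 degrees of freedom each on GC content and log2 exon length per library, followed by TMM again. DESeq2 1.42.0, other scalings, no filter, fits of 2 groups, a replicate block and leaving out libraries were alternatives. The scripts were tested on simulated data. Libraries of a group differed by more than sampling noise. The SDs and SEs given include these differences between libraries. The members and lists were chosen with earlier results of these data known. All members are named, with up to 3 called genes of the largest change per list (average log2 CPM of at least 1) in the first 2 comparisons and the largest per list in the third, except 1 gene that is not reported here. Bcl2l12 falls outside this rule. Bcl2l10, the Bcl2a1 genes and Casp8 were named after their values were seen.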

Additional observations from a re-analysis of the deposited data

How the results depend on the processing

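The calls of BB-p53n DMSO against p53n held for 7 members under every alternative except upper-quartile scaling, which gave 6 and moved the median of all genes by -0.15. Of all genes, 11780 were called as counted and 11897 with that scaling. For BB-p53n EZH2i against BB-p53n DMSO, 8 members were called as counted, beside 12397 of the 17001 genes tested. With the GC and length trend removed 5 were called, beside 9783 genes. The replicate block added to that gave 4 (3 higher, 1 lower, Bid adjusted p = 0.0502), beside 9585 genes. With the trend removed and the scaling of the uncorrected counts kept 5 were called (2 higher, 3 lower), beside 9738 genes. The last setting moved the median of all genes by -0.13, split the genes called into 3935 higher and 5803 lower (6349 and 6048 as counted), and, with the repeats of the corrected fit without single libraries, was chosen after seeing the data. In it the called falls were Bcl2, Bcl2l1 and Mcl1. Leaving out single libraries gave 4 to 8 members over both fits in this comparison, beside 8744 to 12428 of all genes called. No paired design follows from the labels. Each gene's group mean was taken out of its log2 CPM, and the deviations left were correlated between libraries (average log2 CPM above 1). In these deviations, same-numbered libraries had correlations of -0.22 to 0.35 over all pairs of groups. Between BB-p53n EZH2i and BB-p53n DMSO these were 0.35, 0.28 and -0.0076 for replicates 1, 2 and 3. Libraries of different numbers had -0.32 to 0.054 there, and whether these cultures were paired cannot be told from the labels. The replicate block alone gave 7, 8 and 8 members in the 3 comparisons, beside 11665 genes called in the first and 12267 in the second.

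Directions that turned, mostly of values near 0, were these on the log2 scale. For BB-p53n DMSO against p53n, Mcl1 was at -0.0083 with RLE factors, -0.12 with upper-quartile factors, -0.0082 in DESeq2, and -0.0745, -0.0746 and -0.0724 in the corrected fits (plain, with block, with scaling kept), and ranged from -0.099 to 0.11 without single libraries in both fits. Upper-quartile factors gave -0.077 for Bak1 and -0.10 for Bad, and Bad ranged from -0.080 to 0.19 without single libraries. For BB-p53n EZH2i against BB-p53n DMSO, Mcl1 was at 0.033 with upper-quartile factors and ranged from -0.13 to 0.014 without single libraries. In the 3 corrected fits Bcl2l1 was at -0.0898, -0.0900 and -0.17, Bcl2l11 at 0.262, 0.263 and 0.18, and Bbc3 at -0.18, -0.19 and -0.25. Without single libraries these ranged from -0.11 to 0.61, -0.16 to 0.28 and -0.44 to 0.82. For BB-p53n EZH2i against p53n, Mcl1 was at 0.0040 in the fit of 2 groups and ranged from -0.19 to 0.050, and Pmaip1 was at 0.815, 0.8185 and 0.74 in the corrected fits and ranged from -0.18 to 1.07. The cause was not tested. Bbc3 in BB-p53n EZH2i against BB-p53n DMSO also missed the threshold without a filter (adjusted p = 0.0666) and in the fit of 2 groups (0.0566). Bbc3 and Pmaip1, at 34 to 158 counts per library, have the least depth.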
